A study of Mus musculus with 48 samples.

Results

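The miR-30 family was measured as 7 mature microRNAs (miRNAs), the 5p strands mmu-miR-30a-5p, mmu-miR-30b-5p, mmu-miR-30c-5p, mmu-miR-30d-5p and mmu-miR-30e-5p and the 3p strands mmu-miR-30a-3p and mmu-miR-30e-3p. They were chosen by name among the 1409 entries of the count tables, and all 7 were found. Small RNA was sequenced from C57BL/6 mice to compare miRNAs outside cells, from the airway and the blood, with those of airway cells in allergy. Allergic mice (AA) had weekly intraperitoneal injections of 50 ug ovalbumin with alum for 3 to 4 weeks and, from 7 days after the last injection, 50 ug ovalbumin in 20 ul of saline aspirated into the airway on 3 days. Immunized mice (IMM) had the same injections and then 20 ul of saline alone. Untreated mice (CTR) had neither, and specimens of the other mice were taken on day 4 after the first aspiration. Lavage fluid, lavage cells and serum each gave 7 allergic, 4 immunized and 3 untreated libraries, and epithelial brushings, each from the cells of 1 to 3 mice, gave 3 allergic, 2 immunized and 1 untreated. Immunized and untreated libraries together are called non-allergic. Lavage used 1 ml of saline, and a spin at 500 g for 5 minutes parted the fluid from the cells. Serum libraries came from 1 mouse each. The count tables divide the libraries into sets 2, 3 and 4. Untreated libraries were all in set 2, immunized ones in sets 3 and 4, and allergic ones in each, so allergic mice were compared with non-allergic mice within sets. Whether libraries of the same number came from the same mouse is not given in the labels, so a p-value here speaks only of the spread among libraries.

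A miRNA is cut from an RNA hairpin as a short duplex whose strands, 5p and 3p, can each be loaded into an Argonaute protein. The loaded strand pairs with messenger RNAs mainly through its seed, bases 2 to 8, and lowers their translation and stability. The miR-30 family is made broadly in epithelial and other tissues and is best known for holding back epithelial-to-mesenchymal transition and for acting on autophagy genes. Of its mouse genes, 6 lie in pairs on 3 chromosomes. In the GENCODE annotation of mm10, Mir30a (chr1:23272269-23272339, plus strand, in no other gene) lay 19361 bases from Mir30c-2 (chr1:23291701-23291784, plus strand, in an exon of the long non-coding RNA gene Gm27028). Mir30b (chr15:68337415-68337510, minus strand, in no other gene) lay 3697 bases from Mir30d (chr15:68341208-68341289, minus strand, in an exon of the long non-coding RNA gene Gm20732). Mir30c-1 (chr4:120769534-120769622) and Mir30e (chr4:120772606-120772697) lay 2983 bases apart on the minus strand, both in introns of Nfyc, which encodes a subunit of the transcription factor NF-Y. A further gene, Mir30f, is annotated at the same position as Mir30e on the plus strand.

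The mature sequences below, from RefSeq on GRCm38.p6, show by how few bases members differ. Capitals mark the seed. Of the 7 members, 5 matched the table, and miR-30b-5p and miR-30d-5p are named only.
miR-30a-5p: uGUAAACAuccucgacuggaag
miR-30e-5p: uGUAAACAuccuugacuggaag
miR-30c-5p: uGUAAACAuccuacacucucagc
miR-30a-3p: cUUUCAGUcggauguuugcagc
miR-30e-3p: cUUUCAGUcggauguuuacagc
The 3 printed 5p members share the seed GUAAACA, which 4 of the 1679 mature names in the table carry, and both 3p members share another seed, UUUCAGU. With positions counted from 1 at the 5′ end, miR-30a-5p and miR-30e-5p differ by 1 base (C13U), as do miR-30a-3p and miR-30e-3p (G18A), while miR-30c-5p departs from miR-30a-5p after the first 12 bases (C13A, G14C, G18C, G19U, A20C). Reads that match several entries were split into fractions by the authors' counting. Between 37.5% of the values of miR-30e-5p and 70.83% of those of miR-30b-5p were not whole numbers (tolerance 0.001), so part of a value may be shared with a similar entry. The mature miR-30c-5p is the same from both of its genes and cannot be assigned to a gene.

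Every member was found in 48 of 48 libraries. Over all libraries miR-30d-5p held 22.2%, miR-30c-5p 21.6%, miR-30b-5p 21.2%, miR-30e-5p 17.2% and miR-30a-5p 16.3% of the miR-30 counts, against 0.927% for miR-30a-3p and 0.356% for miR-30e-3p. The 5 other mature strands (30b-3p, 30c-1-3p, 30c-2-3p, 30d-3p and 30f) together had 1466 counts. Library totals ran from 135707 to 561803 counts in lavage fluid, 113004 to 654157 in brushings, 43087 to 960796 in lavage cells and 137638 to 2738223 in serum. Each level is a share of the miRNAs counted in its library, not an amount, and fewer cells of a type cannot be told apart from less RNA per cell. The labelled tissues were checked against fixed marker lists. The 11 epithelial miRNAs (the miR-200 and miR-183 groups and others) summed to 11.9% to 15.5% of allergic and 14.2% to 16.7% of non-allergic brushings, against 0.33% to 1.28% of allergic and 1.67% to 3.86% of non-allergic lavage cells. The 8 hematopoietic miRNAs (miR-142a, miR-223 and others) summed to 10.8% to 34.3% of allergic and 3.68% to 9.15% of non-allergic lavage cells. Brushings also held miRNAs of mesenchyme and muscle, at 0.736% to 4.57% in allergic and 2.72% to 10.6% in non-allergic libraries.

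**Figure D1:**
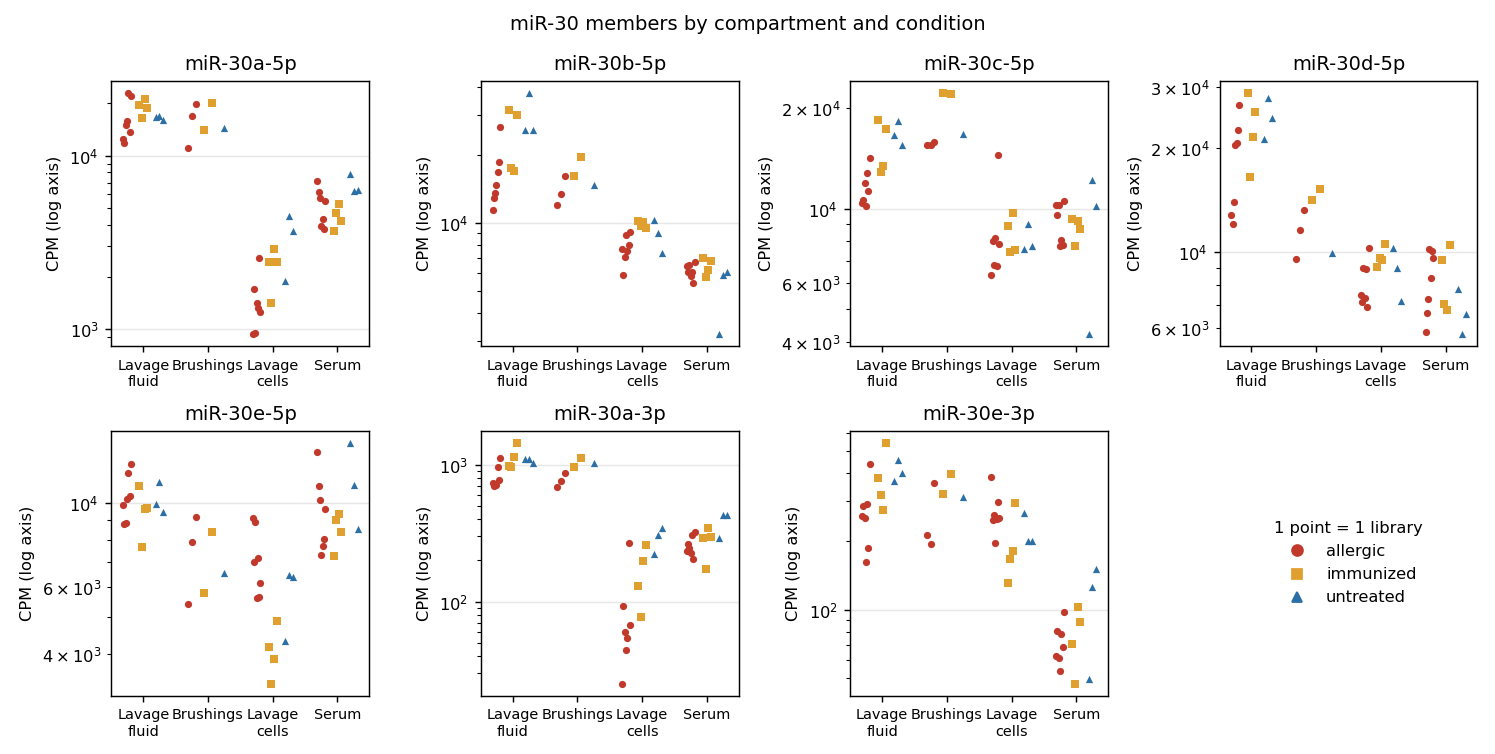
Level of each member in every library, in counts per 1000000 (CPM) scaled over all 48 libraries, on a log axis. Within each compartment allergic libraries stand left, immunized ones in the middle and untreated ones right. miR-30a-5p and miR-30a-3p were on average lowest in lavage cells, and miR-30e-5p reached its highest levels in serum.

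The first question was where each member is found without allergy. In non-allergic mice the strands of the 30a hairpin were high in lavage fluid and brushings and low in lavage cells and serum. miR-30a-5p averaged 17989 ± 1971 CPM in lavage fluid (SD, n = 7), 16175 ± 3420 CPM in brushings (n = 3), 5476 ± 1449 CPM in serum (n = 7) and 2754 ± 1055 CPM in lavage cells (n = 7). Its opposite strand, miR-30a-3p, averaged 1109 ± 164 CPM in lavage fluid, 1039.7 ± 84.7 CPM in brushings, 321 ± 89.3 CPM in serum and 219 ± 94.6 CPM in lavage cells. In both cases the fluid and brushing libraries all lay above every lavage cell and serum library, and fluid and brushings overlapped. The share of all miRNAs whose compartments are separated in this way was not computed. Such separation, here and for the members below, is therefore not shown to be particular to the family.

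The pair from the 30b/30d locus stood highest in lavage fluid. miR-30b-5p averaged 26434 ± 7465 CPM in lavage fluid, 16752 ± 2434 CPM in brushings, 9462 ± 1048 CPM in lavage cells and 5841 ± 1235 CPM in serum. miR-30d-5p averaged 23677 ± 4303 CPM in lavage fluid, 13084 ± 2765 CPM in brushings, 9301 ± 1097 CPM in lavage cells and 7709 ± 1685 CPM in serum. All fluid libraries of both lay above every lavage cell and serum library, and for miR-30d-5p every fluid library also lay above every brushing library. miR-30c-5p averaged 20344 ± 3086 CPM in brushings, 16077 ± 2222 CPM in lavage fluid, 8789 ± 2452 CPM in serum and 8269.6 ± 923 CPM in lavage cells, the last 2 of which overlapped.

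The hairpin of miR-30e gave strands with unlike distributions. miR-30e-5p averaged 9839 ± 1206 CPM in lavage fluid and 9744 ± 2379 CPM in serum, against 6924 ± 1341 CPM in brushings and 4789 ± 1219 CPM in lavage cells. miR-30e-3p averaged 391 ± 88.0 CPM in lavage fluid, 344 ± 44.8 CPM in brushings, 206 ± 56.6 CPM in lavage cells and only 90.9 ± 38.8 CPM in serum. Serum libraries of miR-30e-3p, which were counted with as few as 6 counts, all lay below every fluid and brushing library.

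These differences were tested with edgeR's quasi-likelihood test in 1 fit of the non-allergic libraries of all compartments, with the library set as a term, and a miRNA was called at a Benjamini-Hochberg adjusted p under 0.05. Between lavage fluid and serum 6 members were called higher and 0 lower, where 77% of the 356 tested miRNAs were called in either direction and 35.4% higher in fluid. The median log2 difference was 1.42 for the members and -0.04 for all tested. miR-30b-5p was 3.59-fold, miR-30e-3p 3.52-fold, miR-30a-3p 2.82-fold, miR-30a-5p 2.68-fold, miR-30d-5p 2.42-fold and miR-30c-5p 1.46-fold higher in fluid (edgeR adjusted p 6.62e-09 to 0.00907). The exception was miR-30e-5p, at a log2 difference of -0.32 ± 0.19 (SE; edgeR adjusted p 0.125). Its sign depends on the scaling and turned to 0.45 with total count scaling, which moved the median of all tested miRNAs by 0.738.

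Between lavage fluid and lavage cells all 7 members were called higher, where 68.3% of all tested miRNAs were called and 37.9% higher in fluid. The 30a hairpin had the largest differences, 5.53-fold for miR-30a-5p and 4.38-fold for miR-30a-3p (edgeR adjusted p 5.23e-10 and 2.14e-08), and the other members were 1.61-fold to 2.34-fold higher. The call of miR-30e-3p ended without immunized library 3 of lavage cells (edgeR adjusted p 0.0585), and the others held without any single library. Between lavage fluid and brushings, where 11.2% of all tested miRNAs were called and 5.62% higher in fluid, 1 member passed. It was miR-30d-5p, 1.82-fold higher in fluid (log2 difference 0.86 ± 0.26, edgeR adjusted p 0.024), and its call ended when any 1 of the 3 brushing libraries was left out, with total count scaling or with no filter on low counts. These comparisons share the fluid libraries.

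Lavage cells and serum differed in opposite directions for different members, with 68% of all tested miRNAs called, 28.1% higher and 39.9% lower in cells. miR-30e-3p was 2.18-fold and miR-30b-5p 1.54-fold higher in lavage cells, while miR-30e-5p was 2.15-fold, miR-30a-5p 2.06-fold and miR-30a-3p 1.55-fold lower (edgeR adjusted p 1.06e-05 to 0.0182). The last of these calls ended with total count scaling, with no filter on low counts, with no term for the library set, and without immunized library 2 or 3 of lavage cells or immunized library 2 of brushings. Brushings were above lavage cells for 4 members, where 62.1% of all tested miRNAs were called and 36% higher. miR-30a-5p was 5.1-fold, miR-30a-3p 4.31-fold, miR-30c-5p 2.08-fold and miR-30b-5p 1.49-fold higher in brushings, and the call of miR-30b-5p (edgeR adjusted p 0.045) ended in 15 of 24 removals of 1 library and in 3 of 5 other settings. Against serum, where 64% were called, 28.1% higher and 36% lower, brushings were higher for miR-30e-3p, miR-30a-3p, miR-30a-5p, miR-30b-5p and miR-30c-5p, by 1.88-fold to 3.22-fold, and lower for miR-30e-5p, by 1.71-fold. The call of miR-30e-5p ended without any 1 of the 3 brushing libraries, with total count scaling and with no filter on low counts.

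**Figure D2:**
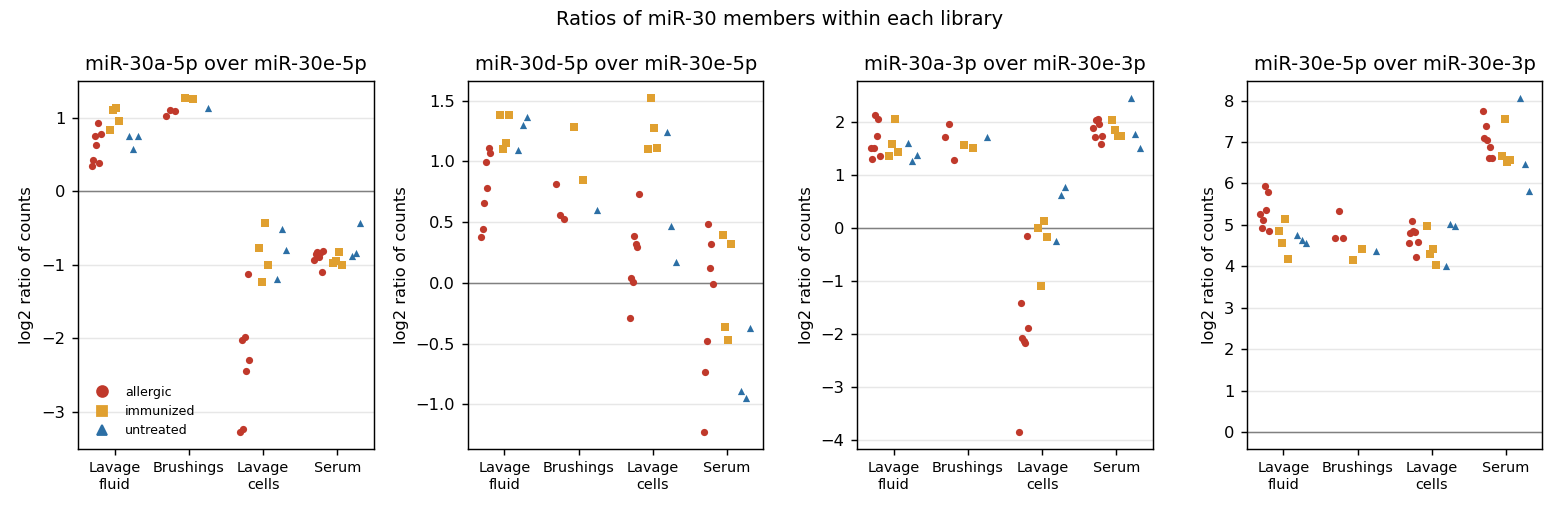
Log2 ratio of the counts of 2 members within each library, which does not depend on library scaling, with allergic libraries left, immunized ones in the middle and untreated ones right in each compartment. The ratio of miR-30a-5p to miR-30e-5p is above 0 in every fluid and brushing library and below 0 in every lavage cell and serum library, and lies lowest in allergic lavage cells.

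Ratios between members of the same library do not depend on scaling and were compared by exact two-sided permutation tests within library sets, with Benjamini-Hochberg adjustment over 28 tests. Here 11 of 28 passed. For the products of 2 loci, miR-30a-5p over miR-30e-5p, the mean log2 ratio was 0.87 ± 0.20 in non-allergic lavage fluid and 1.22 ± 0.08 in brushings, against -0.85 ± 0.31 in lavage cells and -0.84 ± 0.19 in serum (SD). The fluid ratio was 1.71 above serum and 1.72 above lavage cells on the log2 scale, each with an exact permutation p of 0.00278, the smallest the 720 arrangements can give (adjusted p 0.00778). Lavage cells and serum differed by -0.01 in this ratio (exact permutation p 0.95). Over the 7 allergic and 7 non-allergic serum libraries the ratio kept within -1.09 to -0.81 and -0.999 to -0.43, while the level of miR-30e-5p itself varied from 5911 to 12675 CPM and from 5616 to 12286 CPM, scaled within serum.

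Of the 7 ratios, that between the strands of the miR-30e hairpin had the widest gap between compartments. The log2 ratio of miR-30e-5p to miR-30e-3p averaged 6.81 ± 0.76 in serum, 4.67 ± 0.30 in lavage fluid, 4.53 ± 0.45 in lavage cells and 4.31 ± 0.14 in brushings. It was 2.14 lower in fluid than in serum and 2.28 lower in lavage cells than in serum, with no overlap in either case (exact permutation p 0.00278, adjusted p 0.00778). For the strands of the miR-30a hairpin, the log2 ratio of miR-30a-5p to miR-30a-3p was 4.02 ± 0.21 in lavage fluid, 3.68 ± 0.45 in lavage cells and 4.10 ± 0.45 in serum, and fluid minus serum was -0.08 (exact permutation p 0.686, adjusted p 0.739). The ratio of miR-30b-5p to miR-30d-5p, neighbours in the genome, was 0.54 higher in fluid than in serum (exact permutation p 0.0111, adjusted p 0.0283). That call ended without any 1 of 4 libraries (highest adjusted p 0.0798), untreated libraries 1 and 2 of fluid and untreated library 1 and immunized library 4 of serum. It also ended with the replicate number as a block.

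**Figure D3:**
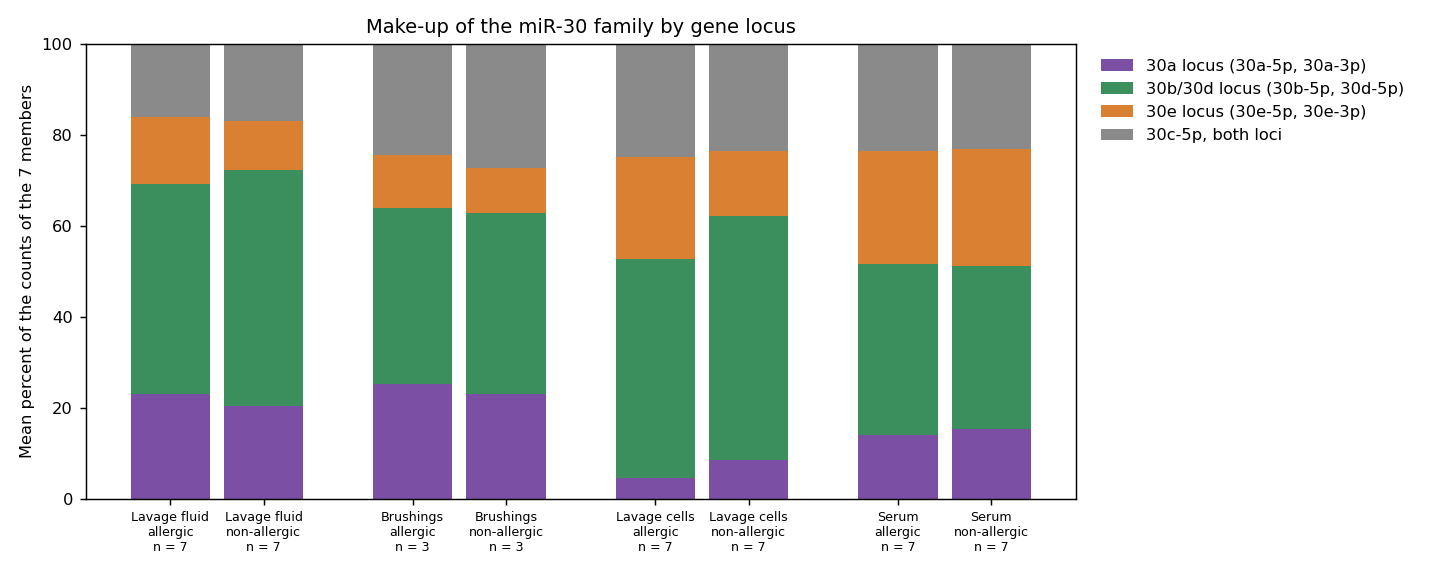
Mean percent of the counts of the 7 members by gene locus, in allergic (left bar of each pair) and non-allergic libraries. The 30a segment holds only miR-30a-5p and miR-30a-3p, and the 30e segment only miR-30e-5p and miR-30e-3p. miR-30c-5p, which is made at both of these loci and cannot be divided between them, is a segment of its own. In lavage cells the 30a segment was 4.61% of the family in allergic libraries, against 8.42% in non-allergic ones. The 30e segment was 22.5% in allergic and 14.3% in non-allergic ones, and miR-30c-5p was 24.9% and 23.6%.

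The second question was how the members differ in allergic mice. Across all members together, the family took 6.19% to 9.18% of the counts in allergic lavage fluid, against 7.79% to 10.7% in immunized and 11.4% to 15.5% in untreated fluid, so the allergic and untreated ranges did not meet. It took 6.34% to 6.85% of allergic and 7.89% to 8.41% of non-allergic brushings. The ranges overlapped in lavage cells (2.02% to 3.97% in allergic, 2.88% to 5.50% in non-allergic libraries) and in serum (2.11% to 4.55% and 1.94% to 4.09%). No test was made of this sum, and how often other sums of miRNAs part the groups in this way was not computed.

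In allergic lavage fluid 4 of the 7 members fell and none rose, against 33.2% of the 253 tested miRNAs called in either direction and 14.2% called lower. The median log2 change was -0.42 for the members and 0.01 for all tested. miR-30b-5p had a lowest, median and highest level of 12988, 15949 and 25876 CPM in allergic fluid (scaled within the compartment). In non-allergic fluid it had 28726, 19518, 17962 and 29242 CPM in the immunized libraries and 28417, 44628 and 31586 CPM in the untreated ones. Allergic libraries 6 and 7, with 23787 and 25876 CPM, overlapped the immunized ones, while every allergic library lay below every untreated one. The share of all tested miRNAs so separated from untreated fluid was not computed, so this is not shown to be particular to the member. The change was 1.61-fold lower (log2 -0.69 ± 0.21 SE, edgeR adjusted p 0.0217), and it ended as a call without immunized library 1 or allergic library 1 or 2 (highest adjusted p 0.0639). Within sets 2, 3 and 4 the differences of mean log2 CPM were -1.21, -0.62 and 0.11, so set 4 had the opposite sign.

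miR-30c-5p fell as well. It had 10753, 13146 and 14412 CPM (lowest, median, highest) in allergic fluid, against 16726, 14412, 14279 and 16829 CPM in immunized and 18364, 21752 and 19108 CPM in untreated fluid. Allergic library 6 reached the 2 lowest immunized libraries, and the other allergic libraries lay below all non-allergic ones. It was 1.35-fold lower (log2 -0.44 ± 0.10, edgeR adjusted p 0.00654), and this call held without any 1 of the 14 libraries (highest adjusted p 0.0199). Within sets 2, 3 and 4 the differences of mean log2 CPM were -0.61, -0.47 and -0.13.

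Both 3p strands fell in allergic fluid as well. miR-30a-3p had 809, 843 and 1100.1 CPM (lowest, median, highest) in allergic libraries, against 883, 1078, 1208 and 1407 CPM in immunized and 1223, 1306 and 1275 CPM in untreated ones. It was 1.33-fold lower (log2 -0.42 ± 0.11, edgeR adjusted p 0.0134), with negative differences in 3 of 3 sets. The call ended without allergic library 2 and with no filter on low counts (edgeR adjusted p 0.0579 and 0.266). miR-30e-3p had 185, 293 and 428 CPM in allergic libraries, against 345, 359, 290.4 and 527 CPM in immunized and 405, 543 and 489.9 CPM in untreated ones. Its 1.46-fold fall (log2 -0.54 ± 0.18, edgeR adjusted p 0.0368) was no longer called in 11 of 14 removals of 1 library, with no filter on low counts or with no term for the library set.

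The remaining members did not pass in fluid. miR-30d-5p had 14584, 17314 and 28772 CPM (lowest, median, highest) in allergic fluid, against 26194, 18429, 22803 and 24636 CPM in immunized and 23401, 33249 and 30032 CPM in untreated fluid. Its log2 change was -0.37 ± 0.17 (edgeR adjusted p 0.115), and the sets differed, at -0.91 in set 2, -0.13 in set 3 and 0.21 in set 4. miR-30a-5p had a log2 change of -0.15 ± 0.10 (edgeR adjusted p 0.264), and with total count scaling this and the fall of miR-30d-5p passed. miR-30e-5p had a log2 change of 0.11 ± 0.11 (edgeR adjusted p 0.465), which was -0.11 with total count scaling, where the median of all tested miRNAs moved by -0.213.

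Hematopoietic markers moved in the same fluid libraries. Of the 7 tested, 6 rose and 0 fell, and the list summed to 0.933% to 3.52% of allergic and 0.385% to 0.811% of non-allergic fluid. Of the 11 epithelial markers 0 were called, at 9.61% to 18.0% of allergic and 9.80% to 18.8% of non-allergic fluid. Of 6 multiciliated markers 2 rose and 0 fell (3.60% to 8.54% of allergic and 3.13% to 6.20% of non-allergic fluid), and against untreated fluid 4 of 6 rose. Further, 3 of 6 mesenchymal and muscle markers fell, to 0.398% to 0.936% in allergic against 0.691% to 2.69% in non-allergic fluid. Red cell miRNAs rose in 3 of 3 tested cases, to 1.26% to 14.9% in allergic against 0.268% to 1.88% in non-allergic fluid. Their part in the changes of the members was not tested.

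**Figure D4:**
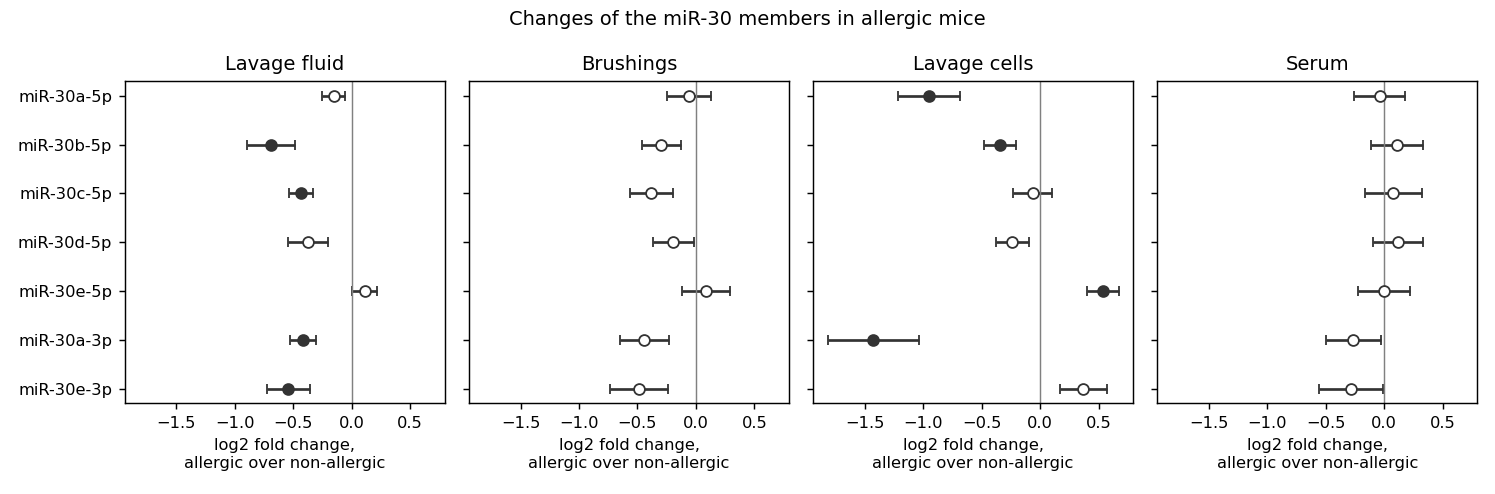
Log2 fold change of each member in allergic over non-allergic libraries, with 1 standard error on each side, in the 4 compartments. Filled points passed an edgeR adjusted p of 0.05. In lavage cells miR-30e-5p lies to the right of 0 and both strands of miR-30a far to the left.

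Against untreated mice, which rests on set 2, 4 members fell in allergic fluid, where 28.2% of 294 tested miRNAs were called and 11.9% lower. miR-30b-5p was 2.24-fold and miR-30d-5p 1.82-fold lower (log2 -1.17 ± 0.24 and -0.86 ± 0.18, edgeR adjusted p 0.00311 each), and miR-30c-5p and miR-30a-3p had log2 changes of -0.55 and -0.52 (edgeR adjusted p 0.00951 and 0.0359). The miR-30c-5p call ended without allergic library 1 (edgeR adjusted p 0.0515), that of miR-30a-3p in 6 of 14 removals and with no filter on low counts, and that of miR-30d-5p with no term for the library set. Against immunized mice, which rests on sets 3 and 4, edgeR called 0 members, where 5.44% of all tested miRNAs were called. There 4 members had an unadjusted edgeR p under 0.05, as did 74 of the 294 tested miRNAs. Of these members miR-30a-3p, miR-30c-5p and miR-30e-3p were lower and miR-30e-5p was higher. DESeq2 called 31 miRNAs, of which 1 was a member. miR-30b-5p had a log2 change of -0.32 ± 0.20 and miR-30d-5p of -0.00 ± 0.15 (edgeR adjusted p 0.356 and 0.988). Immunized against untreated fluid, linked only through the allergic libraries and added after the data were seen, gave log2 changes of -0.86 ± 0.23 for miR-30d-5p and -0.84 ± 0.31 for miR-30b-5p. Neither passed (edgeR adjusted p 0.115 and 0.194, where 1.02% of all tested miRNAs were called). For miR-30d-5p the adjusted p was 0.0146 to 0.262 over the removals of 1 library and passed without untreated library 1 or immunized library 1, and it passed by DESeq2 or with no filter on low counts. miR-30b-5p passed with no filter on low counts.

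In lavage cells the members did not all move the same way in allergic mice. Of the 7, 3 fell and 1 rose. The share called was close to that of the 217 tested miRNAs, of which 56.2% were called, 26.7% lower and 29.5% higher. The median log2 change was -0.24 for the members and 0.04 for all tested. miR-30a-5p had 1031, 1317 and 2838 CPM (lowest, median, highest) in allergic cells, against 2660, 1616, 3368 and 2505 CPM in immunized and 2122, 4779 and 3744 CPM in untreated cells. Allergic library 6 gave the highest value and the next was 1755 CPM, so that 5 of the 7 allergic libraries lay below every non-allergic one. It was 1.93-fold lower (log2 -0.95 ± 0.26, edgeR adjusted p 0.00631).

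The opposite strand of the same hairpin moved with it. miR-30a-3p had 27.7, 65.1 and 295 CPM in allergic cells, again highest in allergic library 6 with the next at 95.5 CPM, against 142, 87.6, 229 and 266 CPM in immunized and 247, 325 and 351 CPM in untreated cells. Counts behind these values were low, 8 to 59.5 per allergic and 11 to 73 per non-allergic library. It was 2.69-fold lower (log2 -1.43 ± 0.39, edgeR adjusted p 0.00608). Both calls of the 30a hairpin held without any 1 of the 14 libraries and in all 5 other settings (highest adjusted p 0.0181 and 0.0211).

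miR-30e-5p, the near-twin of miR-30a-5p, went the other way. It had 5828, 7147 and 10072 CPM in allergic cells, against 4552, 3814, 4542 and 5014 CPM in immunized and 4852.5, 6851 and 6523 CPM in untreated cells. Across sets the groups overlapped, since the untreated libraries with 6851 and 6523 CPM lay above the lowest allergic one. Every allergic library lay above every immunized one, and within each of the 3 sets every allergic library lay above every non-allergic one. Sets 3 and 4 hold only 2 libraries a group, and the share of all tested miRNAs separated in these ways was not computed. It was 1.45-fold higher (log2 0.54 ± 0.14, edgeR adjusted p 0.00385), and no removal of 1 library ended the call. With total count scaling, which moved the median of all tested miRNAs by -0.361, its change was 0.20 and did not pass (edgeR adjusted p 0.466). miR-30e-3p had a log2 change of 0.37 ± 0.20 (edgeR adjusted p 0.122).

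Among the other members in cells, miR-30b-5p had 6047, 8430 and 9532 CPM in allergic libraries, against 11115, 11084, 11815 and 9773 CPM in immunized and 11547, 9509 and 7474 CPM in untreated ones. Its 1.27-fold fall (log2 -0.34 ± 0.14, edgeR adjusted p 0.0434) was called in 1 of 14 removals. miR-30d-5p had a log2 change of -0.24 ± 0.14 (edgeR adjusted p 0.159). miR-30c-5p had 6738, 8198 and 15828 CPM in allergic cells, again highest in allergic library 6 with the next at 8443 CPM, and its log2 change was -0.06 ± 0.17 (edgeR adjusted p 0.771).

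The make-up of the lavage cells differed between the groups. Of the 11 epithelial markers 10 fell and 1 rose, with a median log2 change of -1.45, of 6 multiciliated markers 5 fell (0.0989% to 0.314% of allergic and 0.512% to 1.44% of non-allergic cells), and of 8 hematopoietic markers 7 rose and 1 fell. Red cell miRNAs took 5.53% to 50.6% of allergic and 8.15% to 50.9% of non-allergic cell libraries, and 0 of 4 were called. Of the 6 mesenchymal and muscle miRNAs 2 were tested and 1 fell, and the list summed to 0.00588% to 0.0705% of allergic and 0.03004% to 1.29% of non-allergic cells. No entry of the 5 marker lists was at 0 throughout the allergic or the non-allergic libraries of any compartment. The part of these differences in the changes of the members was not tested.

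Split by control group, allergic cells against untreated cells had miR-30a-3p 4.67-fold lower, miR-30a-5p 2.71-fold lower and miR-30e-5p 1.51-fold higher (edgeR adjusted p 0.00332, 0.00531 and 0.0474), where 39.5% of 258 tested miRNAs were called, 21.3% higher and 18.2% lower. The call of miR-30e-5p ended in 10 of 14 removals and in each of 7 other settings. Against immunized cells, where 38.4% were called and 22.1% higher, miR-30e-5p was 1.5-fold higher (log2 0.59 ± 0.20, edgeR adjusted p 0.027), and this call ended without immunized library 2 or 3 or allergic library 4 or 5, with total count scaling or with no filter on low counts. There miR-30a-5p and miR-30a-3p had log2 changes of -0.50 ± 0.30 and -0.73 ± 0.44 (edgeR adjusted p 0.2 and 0.194), and without allergic library 6 miR-30a-3p passed (edgeR adjusted p 0.0253). Within sets 2, 3 and 4 miR-30a-3p differed by -2.44, -1.15 and -0.78.

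Within-library ratios in allergic mice, again free of scaling, gave 6 calls among 28 tests, 3 in lavage cells and 3 in fluid. In brushings the 8 arrangements allow no exact permutation p under 0.25, so no brushing ratio could pass. In lavage cells the log2 ratio of miR-30a-5p to miR-30e-5p averaged -2.34 ± 0.75 in allergic and -0.85 ± 0.31 in non-allergic libraries, a difference of -1.49 (exact permutation p 0.00278, adjusted p 0.0259). It was negative in each set, at -2.01, -1.21 and -0.99, and held without any single library. Only allergic library 6, at -1.12, lay among the non-allergic values, which ran from -1.24 to -0.43. The 3p strands gave the same direction, with -1.95 ± 1.10 in allergic and -0.00 ± 0.62 in non-allergic cells for miR-30a-3p over miR-30e-3p (difference -1.95, exact permutation p 0.00556, adjusted p 0.0311). That call ended without any 1 of 3 libraries (highest adjusted p 0.0519), allergic libraries 4 and 5 of the cells and, through the adjustment alone, allergic library 5 of the fluid. miR-30d-5p over miR-30e-5p averaged 0.21 ± 0.33 in allergic and 0.99 ± 0.48 in non-allergic cells, a difference of -0.77 (exact permutation p 0.00278, adjusted p 0.0259), which held without any single library.

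In fluid miR-30d-5p over miR-30e-5p averaged 0.78 ± 0.29 in allergic and 1.25 ± 0.13 in non-allergic libraries, a difference of -0.48 (exact permutation p 0.00278, adjusted p 0.0259). It was negative in each set, and its call ended without allergic library 5 (adjusted p 0.0583). The 5p strand of the 30e hairpin outweighed its 3p strand by more in allergic fluid, with a log2 ratio of 5.33 ± 0.42 in allergic and 4.67 ± 0.30 in non-allergic libraries (exact permutation p 0.00833, adjusted p 0.0389). The 30a hairpin had 4.28 ± 0.19 in allergic and 4.02 ± 0.21 in non-allergic fluid (exact permutation p 0.00556, adjusted p 0.0311). These 2 strand ratios lost their calls in 12 and 9 of 48 removals of 1 library (highest adjusted p 0.1 each) and with a pseudocount of 5 in place of 0.5, and the second also without the library sets as strata.

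Serum showed no called member. Of 347 tested miRNAs, 0% were called by edgeR for allergic against non-allergic serum, where 27 miRNAs and 0 members had an unadjusted p under 0.05, and DESeq2 called 0 miRNAs. The log2 changes were -0.04 for miR-30a-5p, 0.11 for miR-30b-5p, 0.08 for miR-30c-5p, 0.12 for miR-30d-5p, -0.00 for miR-30e-5p, -0.26 for miR-30a-3p and -0.29 for miR-30e-3p, with SE from 0.22 to 0.27 (edgeR adjusted p 0.767 to 0.998). Every member overlapped between the groups. As an example, miR-30b-5p ranged from 4706 to 5952 CPM in allergic serum and from 2751 to 5606 CPM in non-allergic serum. Against untreated serum edgeR called 9.29% of 409 miRNAs and none of the 7 members, of which 0 had an unadjusted p under 0.05, and DESeq2 called 44 miRNAs and 0 members. Red cell miRNAs took 21.86% to 66.75% of allergic and 29.45% to 70.53% of non-allergic serum libraries, and 0 of 4 were called between these groups. Their part in the serum levels of the members was not tested.

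Brushings, with 3 libraries a group, also had 0 members called by edgeR, where 2.94% of 306 tested miRNAs were called. None of the 7 had an unadjusted p under 0.05, and DESeq2 called 11 miRNAs and 0 members. Yet 3 members lay lower in every allergic than in every non-allergic library, where 14.1% of all tested miRNAs had groups that did not overlap. No member was so separated in lavage fluid, lavage cells or serum, where the share was 6.32%, 16.6% and 0% of those tested. miR-30b-5p had 14269, 13475 and 15482 CPM in allergic brushings, against 16972 and 18572 CPM in immunized and 17419 CPM in untreated ones. miR-30c-5p had 18548, 15645 and 15323 CPM in allergic, against 23379 and 21084 CPM in immunized and 19869 CPM in untreated brushings. miR-30a-3p had 816, 764 and 847 CPM in allergic, against 1013 and 1078 CPM in immunized and 1219 CPM in untreated brushings. Their log2 changes were -0.29 ± 0.16, -0.38 ± 0.18 and -0.44 ± 0.21 (edgeR adjusted p 0.775, 0.625 and 0.625), with negative differences in 3 of 3 sets. miR-30a-5p, miR-30d-5p, miR-30e-5p and miR-30e-3p overlapped, with log2 changes of -0.06, -0.19, 0.09 and -0.49 (edgeR adjusted p 0.68 to 0.961). In the same libraries 4 of 4 red cell entries rose (0.787% to 17.1% of allergic and 0.177% to 0.732% of non-allergic brushings), 2 of 7 tested hematopoietic markers rose, 1 of 6 mesenchymal and muscle markers fell, and 0 of 11 epithelial markers were called. The part of these in the values of the members was not tested.

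Whether an allergic change differed between compartments was tested as an interaction over all 48 libraries. Between lavage cells and serum 3 members differed, where 28.8% of 399 tested miRNAs were called, 16.3% with a positive and 12.5% with a negative difference. The difference was -0.85 for miR-30a-5p, -1.10 for miR-30a-3p and 0.59 for miR-30e-5p on the log2 scale (edgeR adjusted p 0.0212, 0.0235 and 0.0291). The 2 calls of the 30a hairpin held in all 48 removals of 1 library, although that of miR-30a-3p ended with no term for the library set. That of miR-30e-5p ended in 40 of the removals, with values from 0.21 to 0.60, and in 6 of 7 other settings. Scaling over all compartments moves with the libraries included, and the median of all tested miRNAs ran from -0.385 to -0.006 over these removals. Between lavage cells and fluid, where 17% were called and 6.77% with a positive difference, miR-30e-3p differed by 0.96 (edgeR adjusted p 0.0319), a call that ended in 33 of 48 removals and in each of 7 other settings. There miR-30a-5p differed by -0.74 and miR-30a-3p by -0.96 without passing (edgeR adjusted p 0.0639 and 0.0724), and they passed in 33 and 32 of the removals and both in 5 of 7 other settings. Between fluid and serum, where 7.52% were called and 1.25% with a negative difference, miR-30b-5p differed by -0.81 (edgeR adjusted p 0.0338), which ended in 24 of 48 removals and in 4 of 7 other settings.

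The compartments were also compared within allergic mice. Fluid was above lavage cells for 6 members, where 74.1% of 378 tested miRNAs were called and 41.8% higher, by 11.2-fold for miR-30a-5p and 9.88-fold for miR-30a-3p (edgeR adjusted p 6.06e-14 and 7.88e-11) and by 1.41-fold to 2.17-fold for miR-30b-5p, miR-30c-5p, miR-30d-5p and miR-30e-5p. The call of miR-30c-5p ended with no filter on low counts and with the replicate number as a block. miR-30e-3p averaged 268 ± 89.3 CPM in allergic fluid and 269.5 ± 57.8 CPM in allergic cells, on the scale of all libraries. Fluid was above serum for 5 members, where 76.5% were called and 39.2% higher, by 3.72-fold for miR-30e-3p, 3.14-fold for miR-30a-3p, 3.04-fold for miR-30a-5p, 2.58-fold for miR-30b-5p and 2.18-fold for miR-30d-5p. Against brushings, where 16.9% were called and 9.26% higher, miR-30d-5p alone was called, 1.6-fold higher in fluid (edgeR adjusted p 0.0168), and its call ended without any 1 of the 3 brushing libraries and in 4 other settings.

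miR-30c-5p comes from 2 loci, and the 3p strands of its hairpins are the members' neighbours that can be told apart.
miR-30c-2-3p: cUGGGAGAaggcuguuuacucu
miR-30c-1-3p: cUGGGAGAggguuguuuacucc
Capitals again mark the seed, which both share. In lavage fluid 50 counts of allergic libraries were miR-30c-2-3p and 0 were miR-30c-1-3p, against 104 and 13 counts in non-allergic libraries. The share of miR-30c-2-3p, from the gene beside Mir30a, was thus 100% (exact binomial 95% interval 92.9% to 100%) in allergic and 88.9% (81.7% to 93.9%) in non-allergic fluid, and every fluid library had more of it. Brushings had 37 and 5 counts in allergic (88.1%, 74.4% to 96.0%) and 76 and 3 counts in non-allergic libraries (96.2%, 89.3% to 99.2%). In lavage cells the share was 21.4% of 28 counts in allergic (8.3% to 41.0%) and 66.7% of 15 counts in non-allergic libraries (38.4% to 88.2%). miR-30c-1-3p, from the gene beside Mir30e, was the more frequent in 5 of 7 allergic cell libraries, with 1 tied, and 1 library held 11 of its 22 counts. It was the more frequent in 0 of 7 non-allergic cell libraries, of which 4 were tied and 3 had more miR-30c-2-3p. Serum had 6 and 6 counts in allergic and 15 and 10 counts in non-allergic libraries. The intervals cover counting error only and no test between groups was made, since the counts are few. These shares rest on the 3p strands alone. The hairpin entries of the same genes, with reads split into fractions, had 40.2 counts for mir-30c-2 and 24.7 for mir-30c-1 in allergic fluid. In non-allergic fluid they had 74.8 and 50.3. In lavage cells they had 66.5 and 22.5 in allergic and 28.2 and 17.7 in non-allergic libraries, so in allergic cells their order was opposite to that of the 3p strands.

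**Figure D5:**
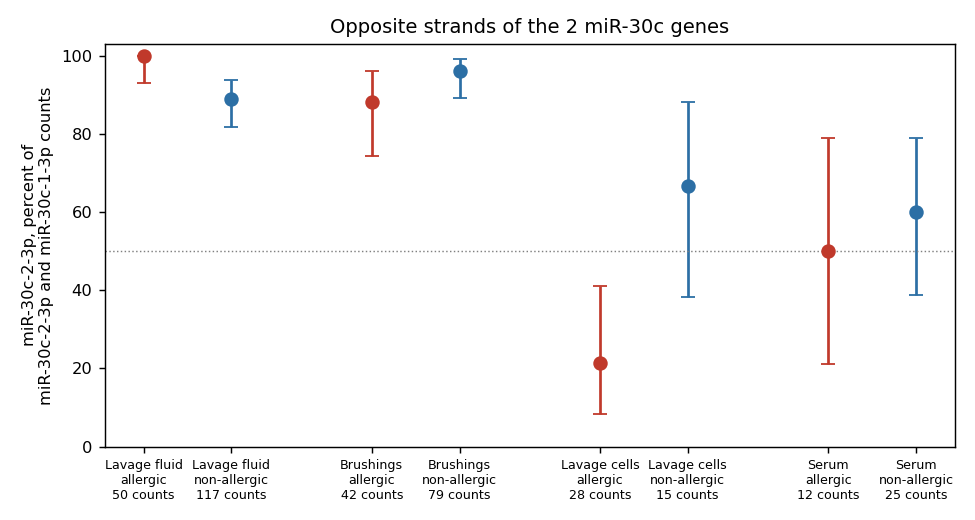
Share of miR-30c-2-3p among the counts of both 3p strands of the miR-30c genes, summed over the libraries of each group, with exact binomial 95% intervals that cover counting error only. Allergic groups stand left of non-allergic ones. The share is 88.1% to 100% in fluid and brushings and 21.4% in allergic lavage cells.

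The other 3p strands of the 30b/30d hairpins were scarce. miR-30d-3p had 131 counts in allergic and 303 counts in non-allergic fluid, which is 68.5 and 132 CPM of the pooled counts, and miR-30b-3p had 20 and 58 counts, or 10.5 and 25.3 CPM. Single libraries held 7 to 43 counts of miR-30d-3p in allergic and 9 to 90 in non-allergic fluid. Of the 5 other mature strands, edgeR tested 1 in this comparison and called 0 (log2 change -0.69). Against untreated fluid it tested 2 and called 1 lower. In lavage cells miR-30d-3p stood at 42.4 CPM in allergic and 44.8 CPM in non-allergic libraries.

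Over the 12 group means (4 compartments by 3 conditions) the levels of members from the same locus ran together to different degrees. Pearson's r of mean log2 CPM was 0.98 for miR-30a-5p with miR-30a-3p, 0.938 for miR-30d-5p with miR-30b-5p and -0.16 for miR-30e-5p with miR-30e-3p, and it was 0.497 for miR-30a-5p with miR-30e-5p. Among 241 miRNAs outside the family with a mean of at least 50 CPM, the 3 most like miR-30a-5p were miR-99a-5p, miR-130a-3p and miR-199b-5p (r 0.986, 0.985 and 0.963). Those most like miR-30d-5p were miR-331-3p, miR-200b-5p and miR-27b-3p (r 0.845, 0.825 and 0.823). Those most like miR-30e-5p were miR-181d-5p, miR-181c-5p and miR-22-3p (r 0.819, 0.808 and 0.793). The points share libraries and scaling, and these values are descriptions.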

How the data were processed

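The authors deposited expected counts for each mature miRNA, in a separate table for each of the 3 library sets, with reads that match several entries split into fractions. The submitters' processing notes name cutadapt, DESeq2 and the mm10 build with no versions, and no source used here names the aligner. Deposited RPM values, from the authors' table of all libraries whose columns each add up to 1000000, were used only as an alternative. Every column matched a labelled library (0 unmatched). Of all values 4.4% were not whole, where whole counts had been planned for, and counts were rounded, which changed a library total by at most 0.00928%.

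Fits used edgeR 4.0.16 in R 4.3.3 (quasi-likelihood, robust, TMM scaling, filterByExpr with a minimum count of 10, library set as a term), with Benjamini-Hochberg adjustment over all tested miRNAs. All 7 members passed the filter in every comparison. Folds are allergic over the other group, or the first-named compartment over the second, and the SE was taken as the fitted log2 change divided by the square root of its F value. CPM are TMM-scaled counts per 1000000. Ratios are log2 of counts plus 0.5. The fits and ratio tests were tested on simulated data. The simulated counts for the fits had the same spread for every miRNA and no differences between library sets, so they do not show how the fits fare on these libraries. At the totals given, 3 counts are worth 5.34 to 22.1 CPM in lavage fluid, 4.59 to 26.5 in brushings, 3.12 to 69.6 in lavage cells and 1.1 to 21.8 in serum, for counting error only, since the reads carry no molecular identifiers that the files show.

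The members, marker lists and tests were chosen with earlier results of these data known. All 7 members are named in each comparison, other miR-30 strands where a locus is concerned, and for likeness the 3 miRNAs with the highest r. Alternatives were other scalings (DESeq2 1.42.0 size factors, total counts), DESeq2's test, no filter on low counts, no library set term, the replicate number as a block, leaving out each library, and for ratios another pseudocount, RPM and no strata.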

Additional observations from a re-analysis of the deposited data

Results flagged for a closer look

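Within a group of 4 to 10 libraries, 5 of 42 member levels had a library far from the others by Dixon's criterion, which chance meets in about 1 of 20 groups. Allergic library 6 of lavage cells was 3 of these. It had 15828 CPM of miR-30c-5p with the next library at 8443 CPM, 2838 CPM of miR-30a-5p with the next at 1755 CPM, and 295.11 CPM of miR-30a-3p with the next at 95.5 CPM. The other 2 were immunized library 3 of lavage fluid, with 22558 CPM of miR-30a-5p and the next at 18480 CPM, and immunized library 1 of lavage cells, the lowest for miR-30d-5p at 9802.1 CPM with the next at 10845 CPM.

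By an interaction test the allergic change was called as different between compartments in 5 cases. Of the 399 tested miRNAs 17% were called for lavage cells and fluid, 28.8% for lavage cells and serum and 7.52% for fluid and serum. On the log2 scale, the change in lavage cells minus that in lavage fluid was 0.957 for miR-30e-3p. The change in lavage cells minus that in serum was -0.8494 for miR-30a-5p, -1.1039 for miR-30a-3p and 0.5944 for miR-30e-5p. The change in lavage fluid minus that in serum was -0.8127 for miR-30b-5p. The calls of miR-30e-3p, miR-30e-5p and miR-30b-5p ended in many removals of 1 library and in other settings. Those of miR-30a-5p and miR-30a-3p held in all removals, although that of miR-30a-3p ended with no term for the library set.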

How the results depend on the processing

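Counts of called members, out of 7, mostly held within 1.5 times their value. The exceptions follow, with the cause not tested. Lavage fluid, allergic against non-allergic, gave 2 with no filter on low counts and 1 to 4 over removals of 1 library. Against untreated mice it gave 7 with total count scaling and 2 to 4 over removals, and against immunized mice 1 with total count scaling and 1 by DESeq2's test. Lavage cells against immunized mice gave 2 with total count scaling, 0 with no filter and 0 to 2 over removals. The 2 with total count scaling were miR-30a-5p and miR-30a-3p, both lower, while the call of miR-30e-5p was lost. Fluid against brushings gave 0 with total count scaling and with no filter, in both states, 0 with DESeq2 size factors and with no library set term in allergic mice, and 0 to 1 over removals. For the difference of allergic changes, cells and fluid gave 2 with DESeq2 size factors, total count scaling and DESeq2's test, 0 with no filter and no set term, and 0 to 3 over removals. In each of these settings with 2, they were miR-30a-5p and miR-30a-3p with negative differences, and miR-30e-3p was lost. Cells and serum gave 1 with no set term and 2 to 5 over removals, and fluid and serum 0 with total count scaling and no set term and 0 to 2 over removals. Called ratios in allergic mice were 2 to 7 over removals.

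Same-numbered libraries were checked for pairing by the correlation of their deviations from the group means. It was over 0.1 in 8 of 14 pairs of fluid and cells, 2 of 14 of fluid and serum and 4 of 14 of cells and serum, and so did not exceed it in every pair, as was required to treat the numbers as pairs. For fluid and cells all 14 values were above 0 (0.049 to 0.239, with equal values in sets of 2 libraries), so whether those libraries pair is not settled. With the number as a replicate block, the difference of allergic changes gave 2 called members for cells and fluid and 0 for fluid and serum. The same fits with no block and no brushings gave 2 and 0 as well, and the block kept the other 6 of 8 counts within 1.5 times. It ended the calls of miR-30c-5p in allergic fluid against allergic cells (adjusted p 0.065, 5 members called in place of 6) and of the ratio of miR-30b-5p to miR-30d-5p in non-allergic fluid against serum (adjusted p 0.0757). A block with the brushings was not run, because their numbers lie in other sets.

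Signs turned only in values that were not called. With total count scaling miR-30e-5p in allergic fluid was -0.11, miR-30e-3p in allergic cells -0.0284, miR-30e-5p in brushings -0.0041 and miR-30e-5p in fluid against serum 0.45, which then passed. miR-30d-5p in allergic against immunized fluid was 0.0123 with DESeq2 size factors, 0.0121 by DESeq2, 0.0519 with no filter and -0.0899 to 0.20 over removals. With no filter miR-30c-5p in cells was 0.0191, and in serum miR-30a-5p was 0.0981 and miR-30e-5p 0.1381. With no set term miR-30e-5p in serum was 0.0125. Over removals miR-30c-5p in cells ran from -0.18 to 0.0018. In serum miR-30a-5p ran from -0.10 to 0.0279, miR-30b-5p from -0.0035 to 0.22, miR-30c-5p from -0.0593 to 0.28 and miR-30e-5p from -0.0844 to 0.0781. In brushings miR-30a-5p ran from -0.21 to 0.13 and miR-30e-5p from -0.0729 to 0.29. In fluid against serum miR-30e-5p ran from -0.40 to 0.0720. On the deposited RPM scale 18 of 28 allergic changes of group means moved by less than 1 SD and 10 by more. The sign turned in 4 changes that were not called, to -0.13 for miR-30e-5p in fluid, -0.04 in serum and -0.0079 in brushings, and to -0.07 for miR-30e-3p in cells. Depth limits the 3p strands most, with as few as 6 counts of miR-30e-3p in a serum library.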
